A study of Mus musculus with 6 samples.

Results

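The genes described here encode the machinery that pulls chromosomes apart at cell division. They are 40 genes chosen by symbol from the 25140 genes of the table of counts. Of these, 10 are kinesin motors, 8 are centromere and kinetochore genes and 5 are genes of the spindle checkpoint and the mitotic kinases. Another 3 are spindle assembly factors, 2 work with the anaphase-promoting complex and 4 are genes of the midzone and of cytokinesis. The rest are 5 condensin subunits and 3 genes of mitotic entry, the chromosomal passenger complex and transcription. All 40 were in the table, and all 40 had enough reads for the test, as did 14334 genes in all. RNA-seq of polyadenylated RNA was performed on primary cardiac fibroblasts of C57BL/6 mice at passage 1, taken from the adult heart by the sample labels and grown in DMEM with 25 mM glucose and 10% FBS. At 80% confluence the serum was lowered to 1% FBS, and after 16 h by the labels, or 24 h by the study's methods, the cells received either no cytokine (vehicle, 3 libraries) or 10 ng/mL TGFβ (3 libraries) for 24 h. TGFβ is the cytokine best known for driving fibroblasts to become myofibroblasts, which contract and lay down matrix. The study's methods state 3 biological replicates and, like the labels, call the cells cardiac fibroblasts, while its results call them mouse embryonic fibroblasts. No genetic change separates the groups, and both groups were in low serum when they were harvested.

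In a dividing cell these proteins act in sequence. Condensin compacts the chromosomes, the kinetochore forms on the centromere and binds microtubules, kinesin motors build and shorten the spindle, and the checkpoint holds back the anaphase-promoting complex until every chromosome is attached. The midzone and the contractile ring then part the daughter cells. Most of these mRNAs are made in G2 and M phase, so in a culture they are usually read as a sign of dividing cells, and cardiac fibroblasts are known to divide early after injury and less once they are myofibroblasts.

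With TGFβ the mitotic genes were lower as a group. Of the 40 genes, 35 (87.5%) fell at an adjusted p under 0.05 by edgeR's quasi-likelihood test, adjusted over all genes tested after Benjamini and Hochberg, where 20.1% of all 14334 genes did. None rose past that threshold (0 of 40, and 0 at an unadjusted p under 0.05), where 20.5% of all genes did. DESeq2 called 32 lower and 0 higher, and limma-voom 35 and 0. All 40 log2 fold changes of TGFβ over vehicle were negative, from -1.16 for *Kif14* to -0.06 for *Spc24*, with a median of -0.61, or 34.3% lower, against a median of -0.001 over all genes tested. In 37 genes (92.5%) every TGFβ library lay below every vehicle library, which 26.1% of all genes did, and in none did every TGFβ library lie above, which 27.2% of all genes did. *Cenpk*, *Spc24* and *Aurka* were the 3 genes whose groups overlapped. The RNA came from whole cultures, so a smaller share of dividing cells and less of these mRNAs in each cell cannot be told apart.

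**Figure D1:**
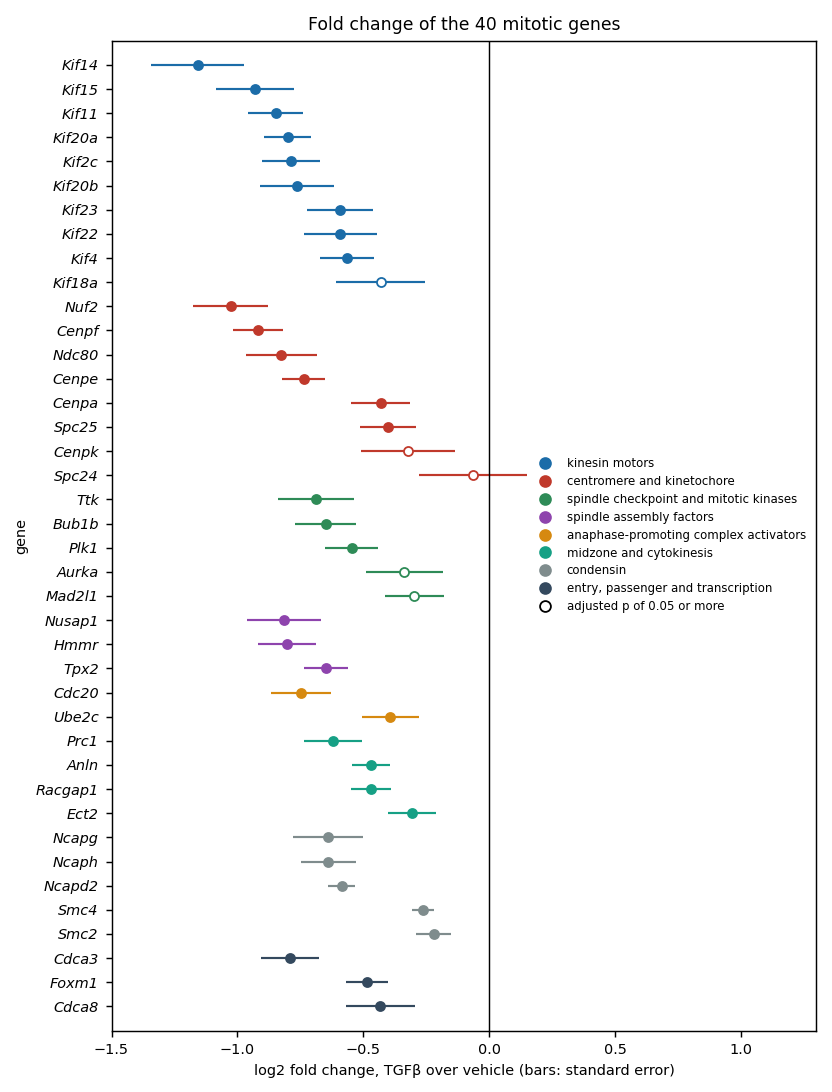
The 40 mitotic genes by log2 fold change of TGFβ over vehicle (points) with its standard error (bars), from edgeR, grouped and coloured by role. Filled points had an adjusted p under 0.05 and the 5 open points did not; every point lies left of 0.

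The 3 vehicle libraries held 31072338, 29296570 and 29331999 counts and the 3 TGFβ libraries 27851677, 28894151 and 28641986. They are called a, b and c in that order within each group. Single mitotic genes had between 26 counts (*Kif14*, TGFβ library a) and 2245 counts (*Smc4*, vehicle library a) in a library. In CPM, which here means counts divided by the TMM-scaled library size on the scale of edgeR's cpm function, the 40 genes summed to 458, 427 and 432 CPM with vehicle and to 304, 285 and 325 CPM with TGFβ. The mean sum was 439 ± 16.9 CPM (SD, n = 3) without TGFβ and 304 ± 20.2 CPM (SD, n = 3) with it, 30.7% lower, and the groups did not overlap. Vehicle library a was the highest of its group in 24 of the 40 genes. TGFβ library c was the highest of its group in 32 and TGFβ library b the lowest in 29, so the TGFβ libraries differed from each other in the same order across most of these genes. Relative to the vehicle mean, the median log2 level of the 40 genes was -0.65, -0.77 and -0.48 in TGFβ libraries a, b and c, and 0.06, -0.04 and -0.02 in the vehicle libraries. The coefficient of variation over 3 libraries had a median of 7.24% with vehicle and 11.0% with TGFβ, and was largest for *Nuf2* with vehicle (15.2%) and for *Spc24* with TGFβ (29.3%).

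**Figure D2:**
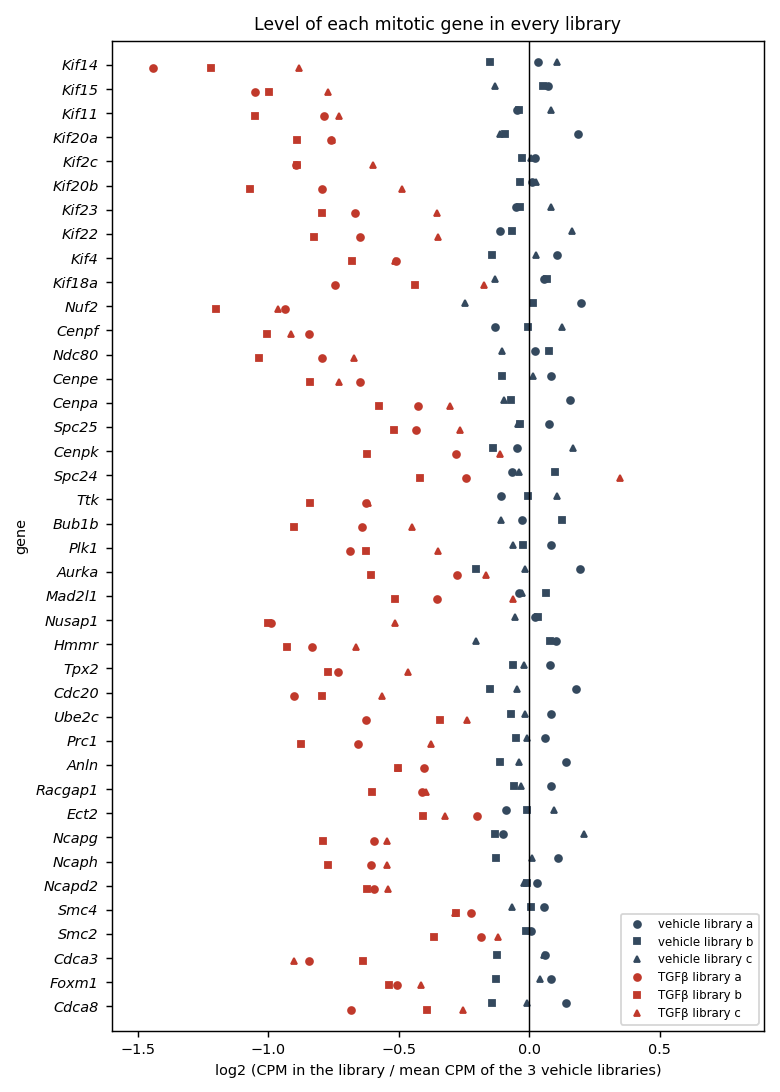
Level of each of the 40 mitotic genes in every library, as the log2 ratio of its CPM to the mean of the 3 vehicle libraries (dark symbols vehicle, red symbols TGFβ; circle, square and triangle are libraries a, b and c). The red symbols lie left of the dark ones except in Cenpk, Spc24 and Aurka, and the red triangle, TGFβ library c, is the highest of its group in 32 genes.

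The cultures expressed all 9 fibroblast markers examined, with summed levels between 38079 and 45016 CPM. Of these 9, 7 were lower with TGFβ, *Pdgfra* (-1.37 on the log2 scale) and *Tcf21* (-1.05) most, and 0 were higher. Of all genes tested, 20.1% were lower and 20.5% higher. Most of the fibroblast sum was *Col1a1* (mean 19992 CPM without TGFβ, 23484 CPM with it) and *Col1a2* (13656 and 14967 CPM). These did not pass the test (log2 fold changes 0.23 and 0.13). RNA of other cell types was present too. The 9 endothelial markers summed to between 973 and 1213 CPM with vehicle and between 1009 and 1185 CPM with TGFβ, with 0 called lower and 1 higher. That gene was *Eng*, which made up much of the sum (mean 520 CPM without TGFβ, 608 CPM with it), while 6 of the 9 log2 fold changes were negative, with a median of -0.26, among them *Pecam1* (-0.34, edgeR adjusted p = 0.226), *Cdh5* (-0.38, edgeR adjusted p = 0.255) and *Kdr* (-0.36, edgeR adjusted p = 0.231). The 8 leukocyte markers in the table summed to between 251 and 362 CPM with vehicle and between 215 and 322 CPM with TGFβ. The 7 that could be tested included 1 called lower (*Cd14*). Most of the leukocyte sum was *Lyz2* (mean 232 CPM without TGFβ, 202 CPM with it). Mesothelial and epicardial markers were low (24.7 to 83.8 CPM against 16.2 to 41.8 CPM, 0 of 5 tested called). Much of that sum was *Upk3b* (mean 32.4 CPM without TGFβ, 16.3 CPM with it). Cardiomyocyte markers were low too (38.7 to 60.1 CPM against 27.5 to 40.7 CPM, 0 of 3 tested called). Nearly all of their sum was *Tnnt2* (mean 46.7 CPM without TGFβ, 34 CPM with it). The next highest of them, *Nppa*, had a mean of only 0.567 CPM without TGFβ and 0.628 CPM with it. No marker in the table was at 0 in every library, but *Cd79a*, a leukocyte marker, had at most 1 count in any library. Smooth muscle and pericyte markers summed to 267 to 295 CPM with vehicle and 141 to 191 CPM with TGFβ, with *Notch3* lower (-1.85) and *Cspg4* higher (1.45). *Notch3* made up much of the vehicle sum (mean 207 CPM without TGFβ, 57.3 CPM with it). Only 2 of these 7 markers had a negative log2 fold change, and their median was 0.15. The part of these other cells in the fall of the mitotic genes was not tested.

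Genes of G2 and M phase often carry a cell cycle genes homology region (CHR element) close to the transcription start, to which the MuvB core binds, and CCAAT boxes, which NF-Y binds. RefSeq promoter windows of GRCm38.p6, from 250 bases before to 50 bases after the start, were found for 35 of the 40 genes. The other 5 were *Kif20a*, *Spc24*, *Tpx2*, *Smc4* and *Foxm1*. In *Kif2c*, *Kif4*, *Kif14*, *Cdca3* and *Cdca8* the window lies wholly inside the gene as annotated by GENCODE. So do windows 2 and 3 of *Cenpk*, numbered by coordinate, and this gene has 2 CCAAT boxes only in window 2. These genes are counted below all the same, and which start the cells used was not tested. Both strands were searched for the CHR letters TTTGAA or TTCGAA and for CCAAT. A CHR match was present in 28 of the 35 genes (80.0%), against 21.7% of the 27025 genes in the promoter table and 16.4% of those tested in the RNA-seq. Within 50 bases on either side of the start it was present in 25 of 35 (71.4%), against 6.12% of all genes in the promoter table. Of the genes tested in the RNA-seq 4.41% had it there. Across the other cell cycle lists described below this ran from 1 of 16 genes (anaphase-promoting complex) to 12 of 20 (other spindle and cytokinesis genes). CCAAT was present in 25 of 35 (71.4%), against 41.1%, and 2 or more copies in 15 (42.9%), against 13.3%. A CHR match together with at least 2 CCAAT boxes was found in 14 of 35 (40%), against 2.68% of all genes in the promoter table. Some of the other cell cycle lists described below had higher shares with CCAAT. A CHR match with at least 2 CCAAT boxes ran from 6.25% (anaphase-promoting complex) to 45% (other spindle and cytokinesis genes) across them. For at least 2 CCAAT boxes the range was 12.5% (DREAM and MuvB) to 53.3% (other mitotic cyclins, kinases and regulators). For any CCAAT it was 37.5% (anaphase-promoting complex) to 73.3% (the same cyclin list). The 40 genes were chosen by function with results known, so these shares describe them and were not tested.

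The promoters of *Cdc20* and *Hmmr* are shown because they hold a CHR match beside several CCAAT boxes. Each runs from 250 bases before the start to 30 after it, 5′ to 3′ on the gene's strand, and capitals mark the CHR and CCAAT matches (ATTGG and TTCAAA are matches on the other strand). *Cdc20* lies at chr4:118437314-118437593 and *Hmmr* at chr11:40733408-40733687, both on the minus strand of GRCm38.p6. In *Cdc20* the CHR match began 18 bases before the start, between 2 CCAAT boxes that began 53 and 8 bases before it. In *Hmmr* 5 CCAAT boxes preceded a CHR match at bases 9 to 14 after the start.
Cdc20: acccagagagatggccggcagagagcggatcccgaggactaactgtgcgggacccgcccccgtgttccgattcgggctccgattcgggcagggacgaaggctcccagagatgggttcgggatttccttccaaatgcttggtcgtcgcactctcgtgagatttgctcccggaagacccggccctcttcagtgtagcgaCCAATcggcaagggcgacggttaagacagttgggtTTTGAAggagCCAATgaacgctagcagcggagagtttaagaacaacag
Hmmr: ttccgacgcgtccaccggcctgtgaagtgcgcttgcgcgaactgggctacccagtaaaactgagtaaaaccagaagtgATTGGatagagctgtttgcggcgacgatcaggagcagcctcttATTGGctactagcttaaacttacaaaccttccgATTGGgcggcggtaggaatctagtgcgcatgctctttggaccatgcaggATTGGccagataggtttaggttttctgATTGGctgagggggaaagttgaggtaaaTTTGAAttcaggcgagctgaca

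Shorter stretches, from 75 bases before to 30 after the start, show 1 gene of each of the 6 other roles with a match. They are those of the kinesin *Kif15* (chr9:122951006-122951110, plus strand), the kinetochore gene *Cenpf* (chr1:189688057-189688161, minus strand), the checkpoint kinase gene *Ttk* (chr9:83834614-83834718, plus strand), the midzone gene *Prc1* (chr7:80294376-80294480, plus strand), the condensin gene *Ncapg* (chr5:45669850-45669954, plus strand) and the passenger gene *Cdca8* (chr4:124936888-124936992, minus strand, where the CHR match and a CCAAT box on the other strand share 1 base). *Nuf2* (chr1:169531435-169531539, minus strand) and *Ncaph* (chr2:127133925-127134029, minus strand) are shown as genes that fell and held neither set of letters. All coordinates are of GRCm38.p6.
Kif15: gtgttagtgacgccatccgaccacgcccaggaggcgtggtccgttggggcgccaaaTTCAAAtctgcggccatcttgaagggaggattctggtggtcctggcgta
Cenpf: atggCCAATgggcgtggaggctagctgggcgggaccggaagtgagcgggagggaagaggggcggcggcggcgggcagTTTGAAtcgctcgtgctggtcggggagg
Ttk: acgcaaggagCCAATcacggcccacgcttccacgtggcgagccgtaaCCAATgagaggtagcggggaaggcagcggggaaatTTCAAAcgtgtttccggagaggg
Prc1: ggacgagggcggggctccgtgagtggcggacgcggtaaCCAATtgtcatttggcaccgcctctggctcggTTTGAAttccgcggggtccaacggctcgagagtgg
Ncapg: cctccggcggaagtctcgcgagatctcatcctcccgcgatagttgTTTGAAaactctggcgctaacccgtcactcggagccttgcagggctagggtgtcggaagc
Cdca8: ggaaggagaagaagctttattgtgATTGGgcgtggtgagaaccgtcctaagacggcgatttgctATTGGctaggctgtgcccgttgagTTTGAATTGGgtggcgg
Nuf2: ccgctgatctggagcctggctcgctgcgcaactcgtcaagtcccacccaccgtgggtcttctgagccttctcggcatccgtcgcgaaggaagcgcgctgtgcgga
Ncaph: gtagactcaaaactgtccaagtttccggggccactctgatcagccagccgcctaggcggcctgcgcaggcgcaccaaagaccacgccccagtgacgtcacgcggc

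Over all windows of the 35 genes there were 38 CHR matches, of which 37 read TTTGAA and 1 read TTCGAA. Sites in the overlapping windows of *Prc1* and of *Ect2* are counted in each window. Counting the window with the lowest coordinate for each gene, 27 of 35 matches lay within 50 bases of the start and 24 lay on the gene's own strand. Where a CHR match followed the last CCAAT box, in 19 genes, their first bases were between 9 and 153 bases apart, with a median of 37. Neighbouring CCAAT boxes had a median spacing of 38.5 bases over 26 pairs, with a range of 3 to 179. The closest pair, in *Ube2c*, is a pair of overlapping matches on opposite strands. Of the 28 genes with a CHR match, 27 fell with TGFβ and *Aurka* did not pass the test, with a median log2 fold change of -0.61. Of the 7 without one, *Cenpe*, *Nuf2*, *Nusap1* and *Ncaph* fell and *Kif18a*, *Cenpk* and *Mad2l1* did not pass, with a median of -0.64. The share of all genes tested that fell was 20.1%.

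**Figure D3:**
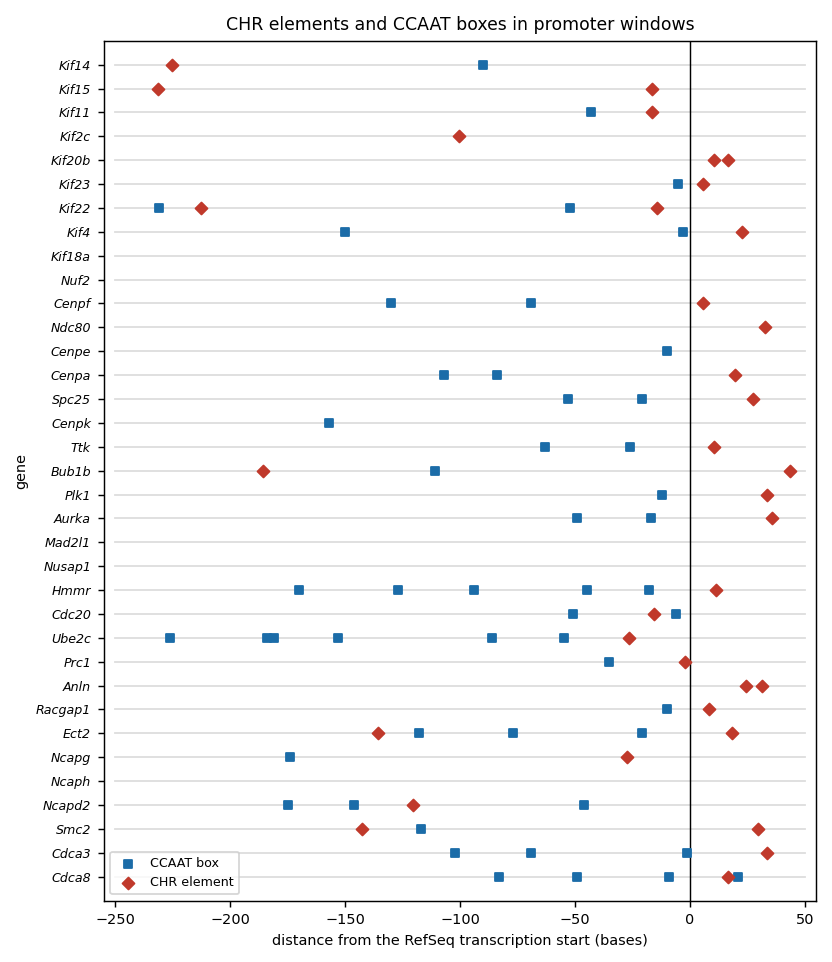
Positions of CHR matches (red diamonds) and CCAAT boxes (blue squares) along the promoter window of the 35 mitotic genes with a RefSeq window, in bases from the transcription start (black line at 0). CHR matches gather near the start, where 25 of 35 genes hold one, and 5 rows are empty.

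The kinesins are motors that walk along or take apart microtubules. Of the 10, 9 fell with TGFβ, with a median log2 fold change of -0.78 over the 10, and in all 10 the groups did not overlap. Over all genes tested, 20.1% fell and in 26.1% every TGFβ library lay below every vehicle library. The counts of the other roles below stand against the same shares. *Kif14* (ENSMUSG00000041498, chromosome 1, 136466343 to 136531511, plus strand of GRCm38), needed to finish cytokinesis, had the largest fold change of the 40 genes. Its level was 2.64, 2.33 and 2.78 CPM in vehicle libraries a, b and c and 0.9504, 1.11 and 1.403 CPM in TGFβ libraries a, b and c. It fell from 2.58 ± 0.233 to 1.15 ± 0.23 CPM (SD, n = 3 each), 55.2% lower (log2 fold change -1.16, standard error 0.18, edgeR adjusted p = 0.00203), and its lowest vehicle library was above its highest TGFβ library by more than the range within either group. *Kif20a*, a motor of the central spindle, was measured at 26.6, 21.95 and 21.7 CPM with vehicle and 13.8, 12.6 and 13.9 CPM with TGFβ. It had the smallest adjusted p of the kinesins (log2 fold change -0.80, standard error 0.09, edgeR adjusted p = 0.000459). Of its 75-base windows 29.3% also occur in *Cdc23*, whose exons overlap it on the other strand by 1271 bases and which had 10246 counts against 3274 for *Kif20a* over the 6 libraries. Whether strand was used in counting is not stated in the sources used here, and *Cdc23* itself had a log2 fold change of -0.06, edgeR adjusted p = 0.218.

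*Kif15* (-0.93, edgeR adjusted p = 0.00245) and *Kif11* (-0.85, edgeR adjusted p = 0.000726) both push the spindle poles apart, and each fell by over 40%. *Kif2c* (-0.79, edgeR adjusted p = 0.00143), which takes microtubules apart at the centromere, and *Kif20b* (-0.76, edgeR adjusted p = 0.00479), a motor of late cytokinesis, fell by similar amounts. *Kif23* (-0.59, edgeR adjusted p = 0.00904), the motor of centralspindlin, and *Kif4* (-0.57, edgeR adjusted p = 0.00455), a chromosome-bound motor, fell less. *Kif4* shares 15.4% of its windows with *Pdzd11*, which overlaps it on the other strand and had 5050 counts against 986. *Kif22*, which moves chromosome arms outward, was at 6.03, 6.24 and 7.31 CPM with vehicle and 4.17, 3.69 and 5.12 CPM with TGFβ. Its fall (log2 fold change -0.59, standard error 0.14, edgeR adjusted p = 0.0136) missed the threshold without TGFβ library a (edgeR adjusted p = 0.0511). *Kif18a*, which dampens chromosome movements at the plate, was at 2.67, 2.697 and 2.35 CPM with vehicle and 1.54, 1.898 and 2.28 CPM with TGFβ. These groups did not overlap, but the test was not passed (log2 fold change -0.43, standard error 0.18, edgeR adjusted p = 0.0888) unless TGFβ library c was left out (edgeR adjusted p = 0.041).

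At the centromere and kinetochore, 6 of 8 genes fell, with a median log2 fold change of -0.58. The NDC80 complex, which couples the kinetochore to microtubules, is built of *Ndc80*, *Nuf2*, *Spc24* and *Spc25*, and its 4 genes differed in their values. *Nuf2* (ENSMUSG00000026683, chromosome 1, 169497934 to 169531464, minus strand of GRCm38) was measured at 6.98, 6.14 and 5.13 CPM in vehicle libraries a, b and c and 3.18, 2.65 and 3.12 CPM in TGFβ libraries a, b and c. It fell from 6.08 ± 0.925 to 2.98 ± 0.291 CPM (SD, n = 3 each), 50.9% lower (log2 fold change -1.03, standard error 0.15, edgeR adjusted p = 0.00123), and its groups did not overlap. *Ndc80*, its partner at the microtubule end of the complex, fell by a similar amount (-0.83, edgeR adjusted p = 0.00275). *Spc25*, at the other end, was at 5.47, 5.06 and 5.03 CPM with vehicle and 3.84, 3.62 and 4.32 CPM with TGFβ. The groups did not overlap (log2 fold change -0.40, standard error 0.11, edgeR adjusted p = 0.0226), but the call was lost with DESeq2 (adjusted p = 0.0576) and without vehicle library a, vehicle library b, TGFβ library a or TGFβ library b (edgeR adjusted p between 0.0558 and 0.0754). *Spc24*, the partner of *Spc25*, was at 2.105, 2.36 and 2.15 CPM with vehicle and 1.86, 1.65 and 2.81 CPM with TGFβ. TGFβ library c was the highest of all 6 here and the other two TGFβ libraries the lowest (log2 fold change -0.06, standard error 0.22, edgeR adjusted p = 0.84). Whether the 4 genes differ in their response was not tested.

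*Cenpf*, a large coiled-coil protein of the outer kinetochore, had the smallest adjusted p of the kinetochore genes. Its level was 8.92, 9.74 and 10.7 CPM in vehicle libraries a, b and c and 5.45, 4.87 and 5.19 CPM in TGFβ libraries a, b and c. It fell from 9.78 ± 0.868 to 5.17 ± 0.289 CPM (SD, n = 3 each) (log2 fold change -0.92, standard error 0.10, edgeR adjusted p = 0.00031), with a gap between the groups wider than the range within either. *Cenpe*, the kinesin that carries chromosomes to the plate, fell as well (-0.74, edgeR adjusted p = 0.00046). *Cenpa*, the histone H3 variant that marks the centromere, was at 6.94, 5.93 and 5.83 CPM with vehicle and 4.64, 4.19 and 5.05 CPM with TGFβ. Its fall was smaller (log2 fold change -0.43, standard error 0.12, edgeR adjusted p = 0.0215) and missed the threshold without vehicle library a, TGFβ library a or TGFβ library b (edgeR adjusted p between 0.0598 and 0.071). *Cenpk*, of the inner kinetochore, was at 1.76, 1.65 and 2.04 CPM with vehicle and 1.499, 1.18 and 1.68 CPM with TGFβ, so that TGFβ library c lay above vehicle library b (log2 fold change -0.32, standard error 0.19, edgeR adjusted p = 0.211).

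Of the spindle checkpoint and mitotic kinase genes, 3 of 5 fell, with a median log2 fold change of -0.55. *Ttk*, the kinase that starts checkpoint signalling, was measured at 2.2, 2.36 and 2.55 CPM in vehicle libraries a, b and c and 1.54, 1.32 and 1.54 CPM in TGFβ libraries a, b and c. It fell from 2.37 ± 0.174 to 1.47 ± 0.124 CPM (SD, n = 3 each) (log2 fold change -0.69, standard error 0.15, edgeR adjusted p = 0.00842). *Bub1b*, whose product BubR1 helps to block the anaphase-promoting complex, was at 12.1, 13.4 and 11.4 CPM with vehicle and 7.896, 6.59 and 9.02 CPM with TGFβ. The fall was of like size (log2 fold change -0.65, standard error 0.12, edgeR adjusted p = 0.00424), and in both genes the groups did not overlap. *Mad2l1*, which encodes the MAD2 inhibitor of CDC20, was at 9.805, 10.6 and 9.89 CPM with vehicle and 7.896, 7.06 and 9.65 CPM with TGFβ. TGFβ library c came close to the vehicle libraries, and the test was passed only without it (log2 fold change -0.30, standard error 0.12, edgeR adjusted p = 0.0786 with all 6 libraries, edgeR adjusted p = 0.0104 without it). *Plk1*, the kinase of spindle assembly and mitotic exit, fell (-0.55, edgeR adjusted p = 0.00489), with 6.26% of its windows shared with the pseudogene *Plk-ps1* and the transcript *Gm44985*, while *Aurka*, the kinase of spindle poles, had overlapping groups (-0.34, edgeR adjusted p = 0.117). Among checkpoint genes outside the 40, *Bub1* fell (-0.59, edgeR adjusted p = 0.00563). So did *Kntc1* (-0.39, edgeR adjusted p = 0.0188) and *Zwilch* (-0.38, edgeR adjusted p = 0.0387). *Bub3* (0.09, edgeR adjusted p = 0.133) and *Mad1l1* (0.07, edgeR adjusted p = 0.361) did not pass. Neither did *Zw10* (0.17, edgeR adjusted p = 0.0746) and *Spdl1* (-0.04, edgeR adjusted p = 0.859).

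All 3 spindle assembly factors fell, with a median log2 fold change of -0.80. *Nusap1*, which bundles microtubules near chromatin, was measured at 6.25, 6.305 and 5.93 CPM with vehicle and 3.11, 3.08 and 4.32 CPM with TGFβ and fell by 43.1% (log2 fold change -0.81, standard error 0.15, edgeR adjusted p = 0.00354). *Tpx2*, which activates Aurora A and seeds microtubules, was at 26.8, 24.3 and 25.04 CPM with vehicle and 15.3, 14.9 and 18.4 CPM with TGFβ. It fell from 25.4 ± 1.27 to 16.2 ± 1.93 CPM (SD, n = 3 each) (log2 fold change -0.65, standard error 0.09, edgeR adjusted p = 0.000946), and with 416 counts or more in every library it is among the better counted of the 40. *Hmmr*, a microtubule-bound partner of TPX2, whose promoter is shown above, fell likewise (-0.80, edgeR adjusted p = 0.00125). In each of these 3 genes TGFβ library c was the highest of its group and still lay below every vehicle library.

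Both genes that work with the anaphase-promoting complex, the ubiquitin ligase that ends metaphase, fell. *Cdc20*, its mitotic co-activator, was measured at 14.7, 11.7 and 12.5 CPM in vehicle libraries a, b and c and 6.94, 7.48 and 8.77 CPM in TGFβ libraries a, b and c. It fell from 13 ± 1.53 to 7.73 ± 0.937 CPM (SD, n = 3 each), 40.4% lower (log2 fold change -0.75, standard error 0.12, edgeR adjusted p = 0.00198), with no overlap. *Ube2c*, the ubiquitin-conjugating enzyme that works with the complex, was at 8.55, 7.69 and 7.98 CPM with vehicle and 5.23, 6.37 and 6.84 CPM with TGFβ. Its fall was smaller (log2 fold change -0.39, standard error 0.11, edgeR adjusted p = 0.0274), and the call was lost without any 1 of the vehicle libraries and without TGFβ library a or b (edgeR adjusted p between 0.0513 and 0.0823). Of its windows 12% also occur in *Tnnc2*, which had 4 counts over the 6 libraries. Of 17 genes of the complex and its partners outside the 40, 2 were lower and 5 higher, with a median log2 fold change of 0.05. Of all genes tested, 20.1% were lower and 20.5% higher, so these counts are near the background. The lower ones were *Anapc13* (-0.40, edgeR adjusted p = 0.00078) and *Anapc7* (-0.15, edgeR adjusted p = 0.0427), both core subunits, and *Ube2s*, which lengthens ubiquitin chains on its substrates, was the highest (0.39, edgeR adjusted p = 0.00364). The core subunits *Cdc27* (0.24, edgeR adjusted p = 0.0033), *Cdc16* (0.14, edgeR adjusted p = 0.0197), *Anapc10* (0.22, edgeR adjusted p = 0.037) and *Anapc15* (0.26, edgeR adjusted p = 0.0193) were higher too.

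Of the midzone and cytokinesis genes, 4 of 4 fell, with a median log2 fold change of -0.47. *Prc1*, which bundles antiparallel microtubules of the midzone, was measured at 18.8, 17.5 and 18 CPM with vehicle and 11.5, 9.88 and 13.96 CPM with TGFβ and fell from 18.1 ± 0.701 to 11.8 ± 2.05 CPM (SD, n = 3 each) (log2 fold change -0.62, standard error 0.12, edgeR adjusted p = 0.00428). *Anln*, the anillin of the contractile ring, was at 33.6, 28.2 and 29.7 CPM with vehicle and 23.1, 21.5 and 21.5 CPM with TGFβ. Its TGFβ libraries lay close together and below every vehicle library (log2 fold change -0.47, standard error 0.07, edgeR adjusted p = 0.0019). *Racgap1*, which forms centralspindlin with *Kif23*, fell (-0.47, edgeR adjusted p = 0.00259). *Ect2*, the exchange factor that centralspindlin recruits to switch on RhoA, was at 7.26, 7.69 and 8.25 CPM with vehicle and 6.73, 5.84 and 6.17 CPM with TGFβ. The groups did not overlap (log2 fold change -0.31, standard error 0.09, edgeR adjusted p = 0.0334), but the call was lost with DESeq2 (adjusted p = 0.0886), with no filter on low counts (edgeR adjusted p = 0.0534), and without vehicle library b or c or TGFβ library b or c (edgeR adjusted p between 0.0708 and 0.104).

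All 5 condensin genes fell, with a median log2 fold change of -0.59. Condensin I holds the subunits encoded by *Ncapg*, *Ncapd2* and *Ncaph*, and shares its ATPases, *Smc2* and *Smc4*, with condensin II. *Ncapd2* (ENSMUSG00000038252, chromosome 6, 125168007 to 125191701, minus strand of GRCm38) was measured at 22.8, 22.2 and 21.99 CPM in vehicle libraries a, b and c and 14.8, 14.5 and 15.3 CPM in TGFβ libraries a, b and c. It fell from 22.3 ± 0.408 to 14.9 ± 0.418 CPM (SD, n = 3 each), and this was the smallest adjusted p of the 40 genes (log2 fold change -0.59, standard error 0.05, edgeR adjusted p = 0.000131). *Ncapg* was at 4.68, 4.58 and 5.8 CPM with vehicle and 3.33, 2.901 and 3.44 CPM with TGFβ and had a similar fold change with a wider error (log2 fold change -0.64, standard error 0.14, edgeR adjusted p = 0.008), and 5.33% of its windows also occur in *Lcorl*, which overlaps it on the other strand. *Ncaph* fell by as much (-0.64, edgeR adjusted p = 0.00273). The shared ATPases had smaller log2 fold changes. *Smc2* was at 20.3, 20.1 and 20.3 CPM with vehicle and 17.8, 15.7 and 18.6 CPM with TGFβ, with no overlap (log2 fold change -0.22, standard error 0.07, edgeR adjusted p = 0.039), but its call was lost with DESeq2 (adjusted p = 0.0778), with no filter on low counts (edgeR adjusted p = 0.0554) and without any 1 library but TGFβ library c (edgeR adjusted p between 0.079 and 0.102). *Smc4*, the most highly expressed of the 40 genes at 13 CPM per kb with vehicle, fell by 16.7% (-0.26, edgeR adjusted p = 0.0027). The subunits particular to condensin II were *Ncapg2* (-0.41, edgeR adjusted p = 0.0152) and *Ncapd3* (-0.22, edgeR adjusted p = 0.0461), which fell, and *Ncaph2* (-0.05, edgeR adjusted p = 0.291), which did not pass the test. The difference between the condensin I subunits and the ATPases was not tested.

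The last 3 genes fell too. *Cdca3*, an adaptor that marks the mitotic inhibitor WEE1 for destruction, was measured at 6.63, 5.83 and 6.604 CPM with vehicle and 3.55, 4.08 and 3.403 CPM with TGFβ (log2 fold change -0.79, standard error 0.12, edgeR adjusted p = 0.00131). *Cdca8*, which encodes borealin of the chromosomal passenger complex, was at 6.72, 5.53 and 6.07 CPM with vehicle and 3.802, 4.66 and 5.12 CPM with TGFβ. Its smaller fall (log2 fold change -0.43, standard error 0.14, edgeR adjusted p = 0.0376) missed the threshold without vehicle library a or c or TGFβ library a or b (edgeR adjusted p between 0.0758 and 0.113). The other passenger genes *Aurkb* (-0.78, edgeR adjusted p = 0.00798), *Birc5* (-0.87, edgeR adjusted p = 0.00963) and *Incenp* (-0.44, edgeR adjusted p = 0.0101) fell as well, so all 4 subunits of that complex were lower. *Foxm1*, the forkhead factor that drives many genes of G2 and M phase, was at 12.6, 10.9 and 12.3 CPM with vehicle and 8.41, 8.24 and 8.94 CPM with TGFβ, without overlap (log2 fold change -0.49, standard error 0.08, edgeR adjusted p = 0.00264).

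Levels were compared between genes only per length. In CPM per kb of exonic sequence with vehicle, the 40 genes ran from 0.233 (*Kif15*) to 13 (*Smc4*), with a median of 1.41, and 12 were under 1. After *Smc4* came *Cdc20* (6.94), *Tpx2* (5.43), *Kif20a* (5.4) and *Plk1* (4.47). Spearman's rho between the vehicle level per kb and the log2 fold change was 0.26 over the 40 genes, which share their libraries, and is given as a description. Genes with few counts have wider errors, and standard errors ran from 0.04 (*Smc4*) to 0.22 (*Spc24*). The genes lie on 15 chromosomes, with 8 on chromosome 2 and 5 on chromosome 9.

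**Figure D4:**
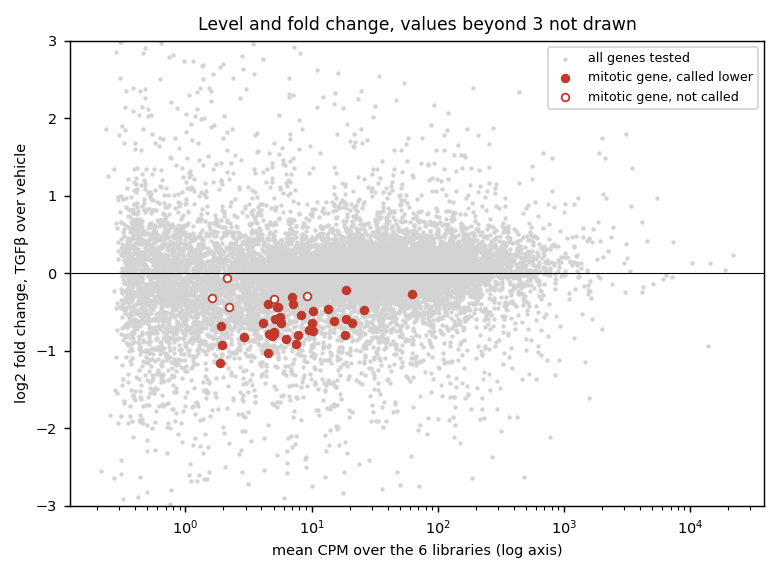
Mean CPM over the 6 libraries (log axis) against the log2 fold change with TGFβ for all 14334 genes tested (grey; fold changes beyond 3 are not drawn) and for the 40 mitotic genes (red, filled where lower past the threshold, open where not). The 40 red points all lie below 0, and only Smc4 lies far to the right of the rest.

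Other genes of the cell cycle were counted in lists that leave out the 40. For comparison, 20.1% of all genes tested were lower and 20.5% higher. Of 22 other mitotic cyclins, kinases and regulators, 14 were lower and 0 higher, with a median log2 fold change of -0.59. *Melk* (-0.97, edgeR adjusted p = 0.00153), a kinase of proliferating cells, and *Ccnb2* (-0.97, edgeR adjusted p = 0.000435), a mitotic cyclin, were the lowest. *Cdk1*, the kinase that mitotic cyclins switch on, did not pass (-0.37, edgeR adjusted p = 0.0521). Of 25 other spindle and cytokinesis genes, 14 were lower and 1 higher, with a median of -0.49. *Ckap2l* (-1.20, edgeR adjusted p = 7.75e-05) and *Aspm* (-1.19, edgeR adjusted p = 6.74e-05), both spindle proteins, were the lowest, and the gene that rose was *Kif5b* (0.41, edgeR adjusted p = 0.00198), a motor that carries cargo along microtubules outside mitosis. Of 33 other centromere and kinetochore genes, 12 were lower and 0 higher, with a median of -0.35. *Ska1* (-1.45, edgeR adjusted p = 0.00593), which helps kinetochores hold shrinking microtubules, and *Oip5* (-1.27, edgeR adjusted p = 0.0151), which loads CENP-A, were the lowest. Both had few counts. *Ska1* had 16, 22 and 22 with vehicle and 6, 6 and 8 with TGFβ. *Oip5* had 46, 44 and 42 with vehicle and 25, 16 and 9 with TGFβ. Exons of *Oip5* overlap those of *Nusap1* on the other strand by 172 bases (182 counts against 857 over the 6 libraries).

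The next lists had medians closer to 0 than those above. Of 24 S phase genes, 10 were lower and 1 higher, with a median log2 fold change of -0.29. *Tk1* (-1.16, edgeR adjusted p = 0.00284), a thymidine kinase, was the lowest and *Cdt1* (-0.80, edgeR adjusted p = 0.00368), which licenses replication origins, was also lower. *Tyms* (0.62, edgeR adjusted p = 6.38e-05), which makes thymidylate, was higher. Of 15 genes of condensin II, cohesin and topoisomerase, 7 were lower and 2 higher, with a median of -0.17. The cohesin acetyltransferase gene *Esco2* (-0.998, edgeR adjusted p = 0.00369) and *Top2a* (-0.75, edgeR adjusted p = 0.000655), the topoisomerase of dividing cells, were the lowest, and the cohesin regulators *Wapl* (0.17, edgeR adjusted p = 0.00978) and *Pds5a* (0.19, edgeR adjusted p = 0.0183) were higher. The DREAM complex, which holds the MuvB core, represses G2 and M genes in resting cells. Of 12 genes listed with DREAM and MuvB, *Rb1* among them, 1 was lower (*Lin54*, -0.22, edgeR adjusted p = 0.0333). In this list 1 was higher (*E2f5*, 0.43, edgeR adjusted p = 0.0169) and the median was -0.06. Of all genes tested, 20.1% were lower and 20.5% higher. Among genes with a RefSeq window, a CHR match was present in 14 of 20 other spindle and cytokinesis genes (70.0%), 6 of 11 genes of condensin II, cohesin and topoisomerase (54.5%), 15 of 29 other centromere and kinetochore genes (51.7%), 6 of 15 other mitotic cyclins, kinases and regulators (40%), 3 of 8 DREAM and MuvB genes (37.5%), 5 of 18 S phase genes (27.8%) and 4 of 16 genes of the anaphase-promoting complex (25.0%), against 28 of 35 of the genes described here (80.0%).

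**Figure D5:**
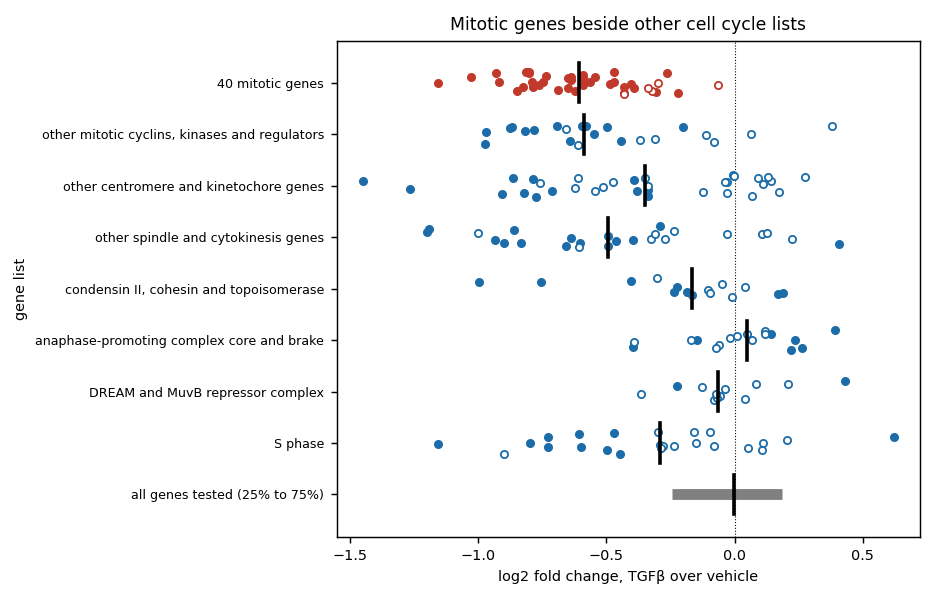
The log2 fold change with TGFβ of the 40 mitotic genes (red) and for 7 other cell cycle lists (blue), 1 point a gene, filled where the adjusted p was under 0.05 and open where not; points are spread vertically for sight. Black bars are medians, from -0.61 for the 40 genes to 0.05 for the anaphase-promoting complex core, and the grey bar spans the middle 50% of all genes tested.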

How the data were processed

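The authors prepared stranded mRNA libraries, sequenced single-end reads of 75 bases, used the mm10 build and ran DESeq2; the aligner, the counting tool, the annotation and the use of strand are not given in the sources used here. The deposited table holds the authors' whole-number counts of reads per gene for each library, without normalization, and these counts were the only values used. It also holds the authors' mean of normalized counts, fold change with its error and statistic, and p-values, which were not used. The columns of counts name only the group, so libraries were lettered in the table's order.

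Counts were scaled with TMM factors (0.967 to 1.02) and filtered with filterByExpr, which kept 14334 of 25140 genes, and TGFβ was compared with vehicle by edgeR's quasi-likelihood test (edgeR 4.0.16, R 4.3.3) with no covariate and Benjamini-Hochberg adjustment over all genes kept, at a threshold of 0.05. The biological coefficient of variation was 7.97%. Standard errors were taken as the size of the log2 fold change over the root of its F statistic. The steps were tested on simulated counts. The p-values measure the spread between these libraries, and an exact permutation test of 3 libraries against 3 cannot give a two-sided p under 0.1, which it gave for every gene whose groups did not overlap. Alternatives were DESeq2 1.42.0, limma-voom (limma 3.58.1), other scalings and filters, each library left out in turn and stricter thresholds.

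Gene positions and exonic lengths are from GENCODE M21 (25086 identifiers matched). Promoters are RefSeq windows of GRCm38.p6; the count within 50 bases of the start was added after the other results were seen. Shared reads were gauged by the 75-base windows of a gene's longest transcript found in other genes' transcripts as well. Exons outside that transcript were not searched, so sharing there is missed. Of the 40 genes, 21 had none and 5 had over 5%. Some exons also overlap better counted genes on the other strand. *Cdc20* overlaps *Elovl1* by 53 bases (25907 counts against 1837) and *Cenpk* overlaps *Ppwd1* by 233 (1450 against 288). *Cdca8* overlaps *9930104L06Rik* by 232 bases (1310 against 939) and *Kif18a* overlaps *Mettl15* by 11 (904 against 395). Every library's value is given for up to 2 genes a role with the smallest adjusted p or largest log2 fold change, and for those whose call changed when a library was left out. From other lists the text names the 2 genes called with the largest log2 fold change. It also names any called in the opposite direction among the 3 largest of the list, and the genes behind counts of 5 or fewer. Partners of the same complexes or checkpoint are named too. These partners were chosen after their values were seen, as were the values given in full for *Spc24*, *Cenpk* and *Foxm1*. The genes and lists were chosen with earlier results of these data known.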

Additional observations from a re-analysis of the deposited data

How the results depend on the processing

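No paired analysis was possible because the columns of counts carry no replicate numbers, and column order was not used to pair libraries. The number of mitotic genes lower with TGFβ, 35, was 32 with DESeq2, 33 with no filter on low counts and 35 with limma-voom, DESeq2's size factors, upper quartile scaling or a filter of 1 CPM in 3 libraries. It was 28 at the stricter adjusted p under 0.01. It was 2 of 40 (*Kif14* and *Nuf2*) when genes lower at the main threshold also had to pass a log2 fold change of 1 in size. Of all genes tested, 625 of 14334 were lower at that cut. The 2 shares are close, so the mitotic genes did not stand out from the background there. With each library left out the number of mitotic genes lower ran from 29 (without TGFβ library a or b) to 36 (without TGFβ library c). Under these alternatives 0 mitotic genes were called higher. Over all genes, the number lower was 2525 of 15392 with DESeq2 and 2777 of 25140 with no filter. With a library left out it ran from 2246 of 14553 (without vehicle library b) to 2765 of 14565 (without TGFβ library c). The median log2 fold change of the mitotic genes ran from -0.715 to -0.527 with a library left out. It ran from -0.627 to -0.601 over the 6 alternatives of scaling, tool and filter. Of the 35 called genes, 28 kept the call under all 12 alternatives with a value for each gene. The 7 that lost it under at least 1 were *Kif22*, *Cenpa*, *Spc25*, *Ube2c*, *Ect2*, *Smc2* and *Cdca8*, and *Kif18a* and *Mad2l1* were called only without TGFβ library c. The direction turned only for *Spc24*, whose log2 fold change ran from -0.334 without TGFβ library c to 0.017 without TGFβ library a and 0.085 without TGFβ library b. Upper quartile scaling moved the median over all genes to -0.022, and no scaling moved it further. At the median count of these genes in a library, 116.5 to 229.5, counting error alone is 6.60% to 9.26%, and it is larger in genes with fewer counts.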

Other observations

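Markers of some other cell types differed more between libraries of a group than between groups. The mesothelial and epicardial markers summed to 83.8, 24.7 and 33.3 CPM in vehicle libraries a, b and c and to 41.8, 16.2 and 19.1 CPM in TGFβ libraries a, b and c. Among them *Lrrn4* had 685, 49 and 174 counts with vehicle and 202, 36 and 58 counts with TGFβ. The leukocyte markers, mostly *Lyz2*, summed to 251, 263 and 362 CPM with vehicle and to 215, 231 and 322 CPM with TGFβ. *Cdh5*, an endothelial cadherin, had 4964, 5131 and 8096 counts with vehicle and 3419, 3742 and 5773 counts with TGFβ. In these cases the libraries with the same letter, which stands only for the order of the columns, held the same rank in both groups. The 40 mitotic genes summed highest in library a with vehicle and in library c with TGFβ.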
